A study of Mus musculus with 6 samples.

Results

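Leiomodins, tropomodulins and Xin proteins are actin-binding proteins of muscle, and their 9 genes (*Lmod1* to *Lmod3*, *Tmod1* to *Tmod4*, *Xirp1* and *Xirp2*) were followed here in C2C12 cells. They were taken by symbol from the 54525 gene rows of the deposited tables, and each symbol matched 1 row. C2C12 is an established, clonal mouse myoblast line that fuses into multinucleated myotubes when serum is lowered. The 6 RNA-seq libraries came from wild-type, untreated C2C12 cells, 3 as myoblasts before differentiation (day 0, D0) and 3 after 5 days of differentiation (D5), and the label of every library calls the cells myoblasts. The p-values measure the spread between these samples, which may in part be technical. The D0 libraries held from 36555048 to 40895840 reads on genes and the D5 libraries from 25449759 to 25811300. Levels are given as CPM, the reads of a gene per 1000000 reads on genes after TMM scaling, or as TPM. TPM divides the reads of a gene by its exonic length, so it can be compared between genes. It then scales each library to a sum of 1000000 without TMM factors, so day differences in TPM and CPM rest on different library scalings.

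Thin filaments of the sarcomere point their slow-growing, or pointed, ends toward the middle of the sarcomere. Tropomodulins cap these ends, and leiomodins, which share the tropomodulin fold, nucleate actin filaments and act at the same ends to lengthen them. Xin proteins carry repeats that bind and bundle actin filaments, and they sit at intercalated discs, at myotendinous junctions and in damaged or remodelling parts of muscle fibers. Loss of LMOD3 causes nemaline myopathy in humans, and loss of LMOD2 causes dilated cardiomyopathy.

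The upstream sequences of 3 of these genes are shown because the leiomodin paralogs *Lmod1* and *Lmod2* behaved differently in the counts and because *Xirp2* is a described target of MEF2 factors. Of the 9 genes, 6 had an entry in the RefSeq promoter table of GRCm38.p6, and the other genes are *Lmod3*, *Tmod3* and *Xirp1*. Each line below gives the 250 bases before the annotated start site, 5′ to 3′, on the strand of the gene, which is the plus strand for all 3. Capitals mark the letters CANNTG (E-box), CATTCC (MCAT) or TATAAA on either strand, and the CArG box and the MEF2 element. The letters CAGCTG are 1 form of CANNTG and overlap it. The windows are chr1:135324563-135324812 for *Lmod1*, chr6:24597521-24597770 for *Lmod2* and chr2:67445752-67446001 for *Xirp2*.
Lmod1: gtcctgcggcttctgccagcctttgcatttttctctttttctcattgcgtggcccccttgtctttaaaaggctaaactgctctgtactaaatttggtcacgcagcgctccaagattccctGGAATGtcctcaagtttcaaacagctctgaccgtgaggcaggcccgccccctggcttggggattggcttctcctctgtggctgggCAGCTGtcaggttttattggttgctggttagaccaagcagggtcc
Lmod2: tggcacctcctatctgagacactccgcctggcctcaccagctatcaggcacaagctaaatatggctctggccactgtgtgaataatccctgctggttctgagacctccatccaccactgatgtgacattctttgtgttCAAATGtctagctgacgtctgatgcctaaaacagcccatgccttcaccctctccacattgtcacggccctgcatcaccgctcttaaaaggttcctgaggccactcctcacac
Xirp2: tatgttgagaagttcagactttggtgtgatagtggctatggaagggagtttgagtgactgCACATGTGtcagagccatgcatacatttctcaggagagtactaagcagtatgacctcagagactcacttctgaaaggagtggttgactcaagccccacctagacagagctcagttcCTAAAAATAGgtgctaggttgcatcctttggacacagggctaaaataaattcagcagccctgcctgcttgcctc
The *Lmod1* window held CAGCTG at position -45 from the start site and the reverse complement of CATTCC at -130. The *Lmod2* window held 1 E-box, at -112, and no exact match to the CArG box or the MEF2 element. The *Xirp2* window held a MEF2 element at -74 and a pair of overlapping E-boxes at -190 and -188. Among 27025 promoters of the same length, CAGCTG stood in 12.8%, CANNTG in 66.0%, CATTCC in 12.6%, TATAAA in 13.0%, the MEF2 element in 3.01% and the CArG box in 1.40%. These matches describe letters in a window and were not tested for binding.

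Whether these genes differed between myoblasts and myotubes was asked for each of them in 1 fit over all genes. All 9 passed the filter on low counts and were among the 16290 genes tested. The quasi-likelihood test of edgeR, with a threshold of 0.05 on the adjusted p, called 8 of the 9 higher at D5 and none lower, and *Lmod1* was not called. Over all genes tested 42.2% were called higher and 40.8% lower, so a call in either direction was common in these data. In CPM, every D5 library lay above every D0 library for the same 8 genes, a position held by 42.2% of all genes, while 41.1% of all genes had every D5 library below every D0 library. The rises differed widely in size. *Lmod2* and *Lmod3* rose by log2 fold changes of 9.43 and 5.81, *Tmod1* and *Tmod2* by 1.99 and 2.01, and the other called genes by less than 1. The median over the 9 genes was 0.74, against 0.0022 over all genes tested.

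**Figure D1:**
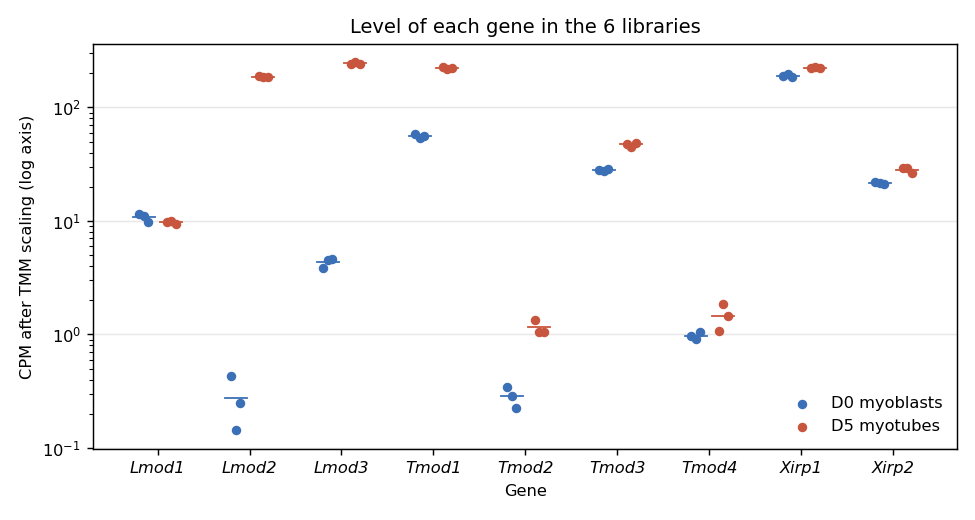
Level of the 9 genes in each library, in CPM after TMM scaling on a log axis, with D0 in blue and D5 in red and the mean of each day as a short line. The separation between days is widest for *Lmod2* (0.273 against 187 CPM) and *Lmod3* (4.35 against 245 CPM), and the days overlap for *Lmod1*.

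Among the scalings, ERCC spike-ins moved the log2 fold changes most. The shift was similar for large and small changes, with *Lmod2* and *Lmod3* at 8.87 and 5.25 in place of 9.43 and 5.81. With upper-quartile factors and with total counts, the log2 fold change of *Xirp1* was 0.21 and 0.14 and that of *Tmod3* 0.73 and 0.66. ERCC spike-ins are synthetic RNAs added to samples. They took 1.20%, 0.720% and 2.09% of the reads in D5 replicates 1, 2 and 3 and from 0.726% to 0.859% at D0. When libraries were scaled to them, the median log2 fold change of all genes moved to -0.58, 1813 genes were called higher and 3747 lower against 6869 and 6641 after TMM scaling, and *Lmod2*, *Lmod3* and *Tmod1* were the members still called. Under that scaling *Xirp1* and *Xirp2* turned to -0.33 and -0.15, values without a call that lay above the shifted median. *Tmod2* kept a log2 fold change of 1.40, with an edgeR adjusted p of 0.0509, and *Tmod3* and *Tmod4* were at 0.16 and 0.052. *Lmod1* was at -0.69, below the shifted median, with an edgeR adjusted p of 0.311.

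**Figure D2:**
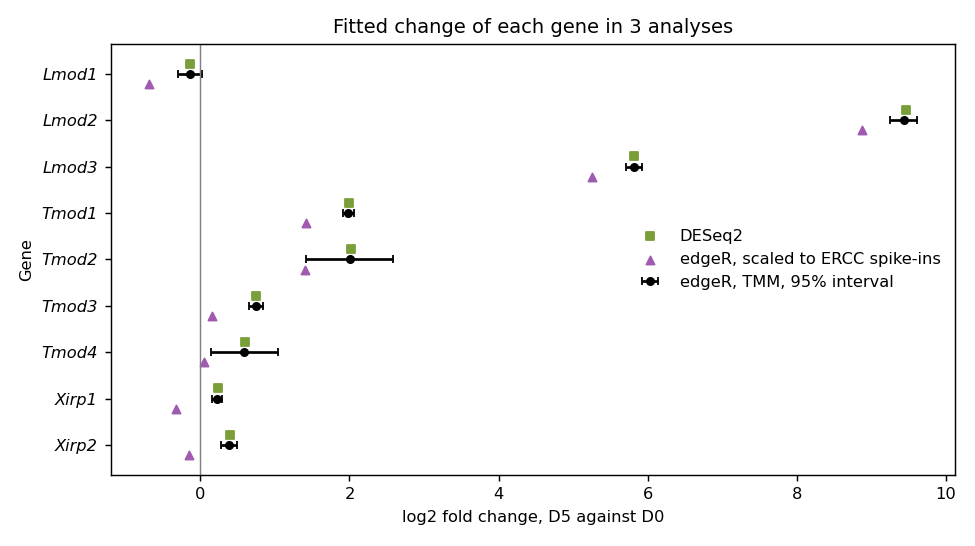
Log2 fold change, D5 against D0, of each gene from edgeR with TMM scaling (black, with its 95% interval), from DESeq2 (green squares) and from edgeR with libraries scaled to the ERCC spike-ins (purple triangles). The first and second lie close together for each gene, while the triangles lie to the left, past 0 for *Xirp1* (-0.33) and *Xirp2* (-0.15).

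*Lmod2* (ENSMUSG00000029683.7), the leiomodin best known from heart and also made in skeletal muscle, went from almost no reads to an abundant transcript. The gene lies on chromosome 6 of GRCm38 from 24597762 to 24605414 on the plus strand. It had 16, 6 and 10 reads in D0 replicates 1, 2 and 3 and 4770, 4593 and 4592 reads in the D5 libraries. In CPM these were 0.427, 0.143 and 0.248 at D0 and 190, 186 and 184 at D5. The D0 values were low and uneven, and the D5 values were high and within a narrow range. Mean CPM was 686-fold higher at D5, a log2 fold change of 9.43 (edgeR adjusted p = 8.9e-37, standard error 0.086). With so few reads at D0 the fold depended on which D0 library was kept, and it ranged from 9.10 to 9.87 on the log2 scale when each library was left out in turn.

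*Lmod3* (ENSMUSG00000044086.8), the leiomodin of skeletal muscle thin filaments, was already present in myoblasts. The gene is on chromosome 6 from 97238534 to 97252759 on the minus strand. It had 145, 192 and 186 reads in the D0 libraries and 6126, 6153 and 6051 reads in the D5 libraries. Every D5 library was thus far above every D0 library, with means of 4.35 ± 0.417 CPM and 245 ± 3.55 CPM (SD, n = 3 each). The log2 fold change was 5.81 (edgeR adjusted p = 4.0e-37, standard error 0.051), a 56.4-fold difference in mean CPM.

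*Lmod1* (ENSMUSG00000048096.7), the leiomodin of smooth muscle, was at a modest level on both days. Its mean TPM was 9.42 at D0 and 7.65 at D5, at the 43.3 and the 41.5 percentile of genes tested. Its locus is chromosome 1 from 135324807 to 135368065 on the plus strand. Its values were 11.5, 11.1 and 9.70 CPM at D0 and 9.83, 10.1 and 9.32 CPM at D5. In CPM the days overlapped, because D0 replicate 3 lay below D5 replicates 1 and 2. In TPM they did not, with 9.89, 9.74 and 8.63 at D0 and 7.90, 7.78 and 7.28 at D5. How many of all genes had every D5 library below every D0 library in TPM was not computed. The log2 fold change was -0.14 with a 95% interval from -0.31 to 0.021 and an edgeR adjusted p of 0.1004, so the interval held both no change and a small fall. Without D0 replicate 3 it was -0.22 and passed the threshold (edgeR adjusted p = 0.0137), and it was also called lower with total counts (-0.23) and without a filter on low counts (-0.20).

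*Tmod1* (ENSMUSG00000028328.13), the tropomodulin of striated muscle thin filaments and also of the red cell membrane skeleton, was the most abundant tropomodulin per length on both days. The gene spans chromosome 4 from 46038935 to 46116032 on the plus strand. Its level was 58.3, 53.5 and 56.5 CPM at D0 and 229, 216 and 221 CPM at D5. All D5 libraries were well above the D0 libraries, with a log2 fold change of 1.99 (edgeR adjusted p = 9.1e-29, standard error 0.037), or 3.96-fold in mean CPM. Of the exonic length of *Tmod1*, 32.6% (1287 bases) is shared with *Tstd2* on the opposite strand, and the strand setting of the counting is not given in the sources used here. *Tstd2* moved the other way, with means of 50.1 ± 1.64 CPM at D0 and 41.2 ± 0.377 CPM in myotubes (SD, n = 3 each) and a fitted change of -0.28 (log2, edgeR adjusted p = 7.3e-07). The part of shared reads in the *Tmod1* value was not tested.

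*Tmod2* (ENSMUSG00000032186.15), the neuronal tropomodulin, was barely expressed. It lies on chromosome 9 from 75565621 to 75611325 on the minus strand, close to *Tmod3*. It had 13, 12 and 9 reads at D0 and 34, 26 and 26 reads at D5 in libraries that were less deep. After scaling, the D0 mean was 0.285 ± 0.0617 CPM and the D5 mean 1.15 ± 0.175 CPM (SD, n = 3 each), with no overlap between days. The log2 fold change of 2.01 was close to that of *Tmod1* but less certain, with a 95% interval from 1.42 to 2.59 (edgeR adjusted p = 2.0e-07). Its TPM was 0.306 at D5, against 175 TPM for *Tmod1*.

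*Tmod3* (ENSMUSG00000058587.9), the widely expressed tropomodulin of the non-muscle actin cytoskeleton, rose moderately. It lies on chromosome 9 from 75497707 to 75559657 on the minus strand. Its level was 28.1, 27.7 and 28.8 CPM at D0 and 48.1, 45.2 and 48.4 CPM at D5. The spread within a day was small beside the difference, and the log2 fold change was 0.74 (edgeR adjusted p = 2.1e-15, standard error 0.046).

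*Tmod4* (ENSMUSG00000005628.12), a tropomodulin of adult fast skeletal muscle, remained near the limit of these libraries in myotubes. Its position is chromosome 3 from 95124476 to 95129209 on the plus strand. It had 36, 38 and 42 reads at D0 and 27, 46 and 36 reads at D5, which is 0.960, 0.903 and 1.04 CPM at D0 and 1.07, 1.87 and 1.45 CPM at D5. D5 replicate 1 lay just above the highest D0 library and D5 replicate 2 well above it. The log2 fold change was 0.59 (edgeR adjusted p = 0.0149, standard error 0.22), with a 95% interval from 0.14 to 1.04. The call rested on D5 replicate 2, without which the value was 0.38 with an edgeR adjusted p of 0.157. DESeq2 gave 0.60 with an adjusted p of 0.0520.

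*Xirp1* (ENSMUSG00000079243.3), which encodes Xin, was the most abundant of the 9 genes at D0, both in CPM and per length, and changed little. It lies on chromosome 9 from 120013755 to 120023598 on the minus strand. Its level was 189, 197 and 184 CPM in the D0 libraries and 221, 225 and 223 CPM in the D5 libraries. The days did not overlap, but the mean differed only 1.17-fold (log2 fold change 0.23, 95% interval 0.16 to 0.30, edgeR adjusted p = 2.9e-07). In TPM the means were closer still, at 113 ± 3.95 and 119 ± 1.29 (SD, n = 3 each), and D5 libraries at 118, 118 and 120 TPM stood beside D0 libraries at 110, 111 and 117 TPM. At D0 it had 113 TPM, above the 49.2 TPM of *Tmod1* and the 6.80 TPM of *Lmod3*. At D5 its 119 TPM was below the 344 TPM of *Lmod3*, the 294 TPM of *Lmod2* and the 175 TPM of *Tmod1*.

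*Xirp2* (ENSMUSG00000027022.13), the larger Xin repeat gene, also known as myomaxin, was at a lower level and also differed little between days. The gene occupies chromosome 2 from 67446002 to 67526614 on the plus strand, and the transcript that overlaps it on the opposite strand, *Gm13601*, was listed at 0 reads in every library. *Xirp2* had 825, 917 and 855 reads at D0 and 734, 725 and 661 reads at D5, which in the less deep D5 libraries is a mean of 28.4 ± 1.59 CPM against 21.7 ± 0.409 CPM (SD, n = 3 each). In CPM the D5 libraries were all higher, with D5 replicate 3 the lowest of them, and the log2 fold change was 0.39 (edgeR adjusted p = 9.5e-08, standard error 0.053).

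The makeup of each family was described by the share of its summed TPM that each gene took in a library. Among leiomodins, *Lmod1* took 56.4% ± 3.53 and *Lmod3* 40.7% ± 4.47 at D0 (SD, n = 3), and *Lmod2* took 4.44%, 1.46% and 2.69% in D0 replicates 1, 2 and 3. At D5 *Lmod3* took 53.3% ± 0.519, *Lmod2* 45.5% ± 0.526 and *Lmod1* 1.19% ± 0.0342 (SD, n = 3). The leading leiomodin thus differed between days in every library, while the summed level went from 16.7 ± 0.399 TPM to 645 ± 14.9 TPM (SD, n = 3 each). At D5 the shares of *Lmod2* and *Lmod3* did not overlap between libraries, with *Lmod3* ahead in each.

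Among tropomodulins *Tmod1* led on both days, with 82.0% ± 0.498 of the summed TPM at D0 and 91.6% ± 0.383 at D5 (SD, n = 3). *Tmod3* took 14.6% ± 0.429 and 6.88% ± 0.167, *Tmod4* 3.25% ± 0.182 and 1.39% ± 0.410, and *Tmod2* under 1% on both days. The share of *Tmod3* was sensitive to its length, since its summed exons span 11151 bases and its longest annotated transcript 3918 bases. With the length of the longest transcript *Tmod3* took 27.9% at D0 and 14.4% at D5, so the order of the genes and the direction held. The summed tropomodulin level was 60.9, 57.6 and 61.5 TPM in the D0 libraries and 200.5, 183 and 189 TPM in the D5 libraries. Between the Xin genes *Xirp1* took 94.7% ± 0.136 at D0 and 94.2% ± 0.315 at D5 (SD, n = 3), and the summed level was 119 ± 3.99 and 126 ± 1.62 TPM.

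**Figure D3:**
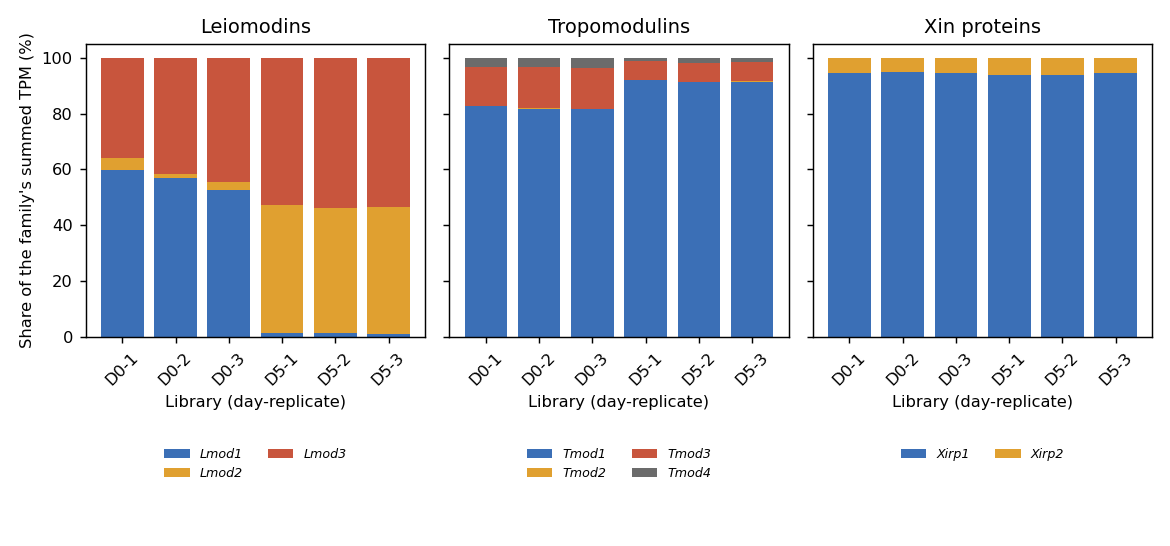
Share of each family's summed TPM taken by each gene, in percent, stacked for each of the 6 libraries. The leiomodins differ most between days, with *Lmod1* at 56.4% on average at D0 and 1.19% at D5, while *Xirp1* holds 94.7% and 94.2% of the Xin signal.

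The change of 1 paralog relative to another was tested for all 10 pairs within families, on the log2 ratio of their CPM in each library. The log2 CPM were taken with a prior count of 2, which shrinks ratios of genes with few reads, such as *Lmod2* at D0. For 8 pairs the ratios did not overlap between days, and each of these had p = 0.1 in a two-sided exact permutation test, the smallest that 3 libraries against 3 can give (adjusted p = 0.125 over the 10 pairs). No pair could therefore pass a threshold of 0.05. The pairs share genes and are not independent, and the share without overlap among all pairs of genes was not computed. Of single genes, 42.2% had every D5 library above every D0 library in CPM, and 41.1% had every D5 library below. The log2 ratio of *Lmod2* to *Lmod3* was -3.81 ± 0.752 at D0 and -0.39 ± 0.0307 at D5 (SD, n = 3 each). That of *Tmod1* to *Tmod3* was 0.99 ± 0.0510 and 2.23 ± 0.0361, and that of *Xirp1* to *Xirp2* was 3.13 ± 0.0396 and 2.97 ± 0.0838. The ratios of *Tmod1* to *Tmod2* and of *Tmod3* to *Tmod4* overlapped between days. No stretch of 50 bases was shared between transcripts of any pair, so reads of that length would not have been split between paralogs. Of the 50-base stretches of *Tmod1* and *Tmod3*, 2.82% and 0.943% also occurred in genes outside the families. No other member had such a stretch. All stretches were compared on the transcript strand only. Bases shared on the opposite strand, as of *Tmod1* with *Tstd2* and of *Xirp2* with *Gm13601*, were therefore not counted.

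Among all genes tested, the 9 genes spanned nearly the whole range of levels. By mean TPM, *Lmod2* stood at the 9.37 percentile at D0 and the 97.4 percentile at D5, and *Lmod3* at the 38.4 and the 97.9. *Tmod1* went from the 79.3 to the 95.5 percentile. *Xirp1* was at the 91.6 percentile in myoblasts and the 92.9 in myotubes, whereas *Tmod4* was at the 21.5 and the 25.5 and *Tmod2* at the 3.70 and the 3.33. Ordered by log2 fold change from the largest rise, *Lmod2* was at place 78 and *Lmod3* at place 485 of the 16290 genes. *Tmod2* and *Tmod1* were at places 1732 and 1754, and *Xirp1* was at place 6566.

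**Figure D4:**
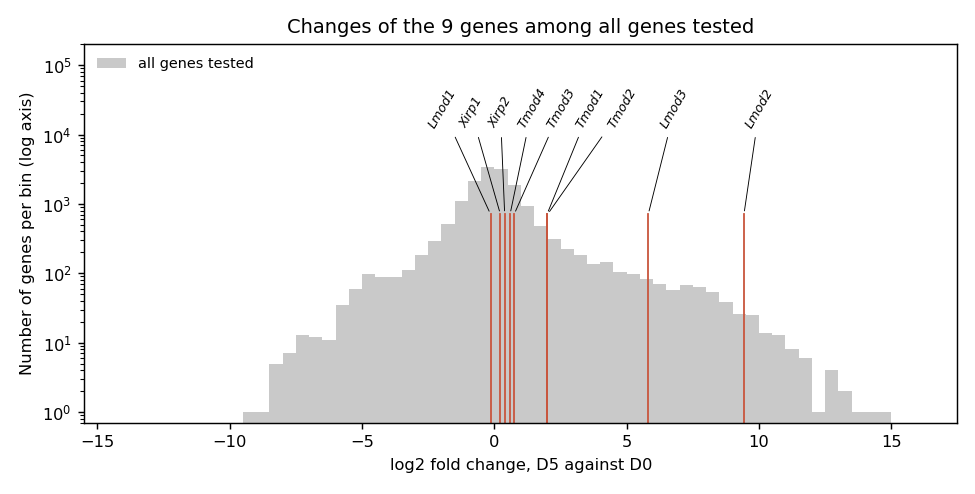
Histogram of the log2 fold change, D5 against D0, of all 16290 genes tested (grey, number of genes per bin on a log axis), with a red line at the value of each of the 9 genes. *Lmod2* (9.43) and *Lmod3* (5.81) lie in the right tail, and *Xirp1* (0.23), *Xirp2* (0.39) and *Lmod1* (-0.14) lie in the central mass.

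Likeness to a member was measured as Euclidean distance over the 6 libraries, in log2 CPM with a prior count of 2, centred on each gene's own mean. Among 11887 genes with a mean of at least 100 reads on 1 of the days, the 3 nearest to a member were taken. For *Lmod3* these included *Ghr* and *Erbb3*, at distances of 0.137 and 0.184. They encode the growth hormone receptor and a receptor tyrosine kinase, and their log2 fold changes were 5.76 and 5.77. For *Xirp1* they were *Aimp2*, *Ano10* and *Ltbp1*, at distances from 0.0320 to 0.0489. For *Tmod3* they were *Cdv3*, *Ginm1* and *Pgpep1*, the nearest at a distance of 0.0426, and for *Tmod4* they were *Fam198b*, *Snora23* and *Osbpl7*, at distances from 0.167 to 0.258. With 2 conditions this likeness rests mainly on a similar fold change.

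Other genes of the thin filament and of actin turnover were followed as fixed lists, with calls from the same fit. Of 24 genes of actin filament ends and assembly, which cap, sever or nucleate filaments or hold monomers, 8 were called higher and 16 lower, beside 42.2% and 40.8% of all genes, and the median log2 fold change was -0.60. *Cap2*, which encodes the cyclase-associated protein of striated muscle, had a mean of 0.303 ± 0.0680 CPM at D0 and rose to 184 ± 4.22 (SD, n = 3 each, log2 fold change 9.24). *Diaph3* and *Daam1*, which encode formins, and *Cfl1*, which encodes the non-muscle cofilin, had log2 fold changes of -4.21, -2.41 and -2.19 and were all called lower. Among the capping and severing genes of the list, *Gsn*, *Eps8*, *Capza2* and *Cfl2* rose by 1.66, 1.74, 0.86 and 1.00 on the log2 scale. *Capza1*, *Capzb*, *Capg* and *Dstn* were called lower, at -0.68, -0.52, -0.70 and -2.10, so the calls went both ways. These capping and severing genes were named after their values were seen.

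Of 12 genes of the thin filament body, 7 were called higher and 4 lower, beside 42.2% and 40.8% of all genes. Their median log2 fold change was 0.61. *Neb*, which encodes the giant filament ruler nebulin, rose by 8.92 on the log2 scale, and the striated actins *Acta1* and *Actc1* by 7.32 and 4.22. *Actg1*, which encodes cytoplasmic gamma-actin, fell, with a log2 fold change of -2.71. The Kelch proteins KLHL40 and KLHL41 bind nebulin, and KLHL40 also stabilizes LMOD3. *Klhl40* went from 2.53 ± 0.0915 CPM to 105 ± 5.49 CPM (SD, n = 3 each; log2 fold change 5.37) and *Klhl41* from 23.5 ± 1.85 CPM to 608 ± 20.1 CPM (SD, n = 3 each; log2 fold change 4.69). *Kbtbd13*, the third of that list, had at most 3 reads in any library and was not tested.

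Of 10 partners and neighbours of Xin proteins at cell contacts, 4 were called higher and 5 lower, near the 42.2% and 40.8% of all genes. Their median log2 fold change was -0.069. *Pgm5*, which encodes aciculin, had 2, 3 and 2 reads in the D0 libraries, within the limit of 3 reads taken for an undetected gene, and 231 ± 4.68 CPM (SD, n = 3) at D5. It was at least 3065-fold higher, computed against 3 reads in each D0 library. *Evl*, an Ena/VASP protein, *Ctnnd1*, which encodes p120 catenin, and *Cdh15*, which encodes M-cadherin, fell, with log2 fold changes of -1.83, -0.72 and -0.62. Of *Srf*, its cofactors *Mkl1* and *Mkl2* and *Myocd*, 4 of 4 were called lower, with log2 fold changes of -1.32 for *Srf*, -1.39 for *Mkl1* and -0.97 for *Mkl2*. *Myocd* had 13, 17 and 15 reads at D0 and 1, 1 and 0 at D5, and it was not tested, leaving 3 calls, when any D0 library was left out or when 10 reads were required in every library. With libraries scaled to the ERCC spike-ins, 1 gene of filament ends and assembly was called higher and 12 lower, 4 of the thin filament body were called higher and 4 lower, and 1 Xin partner was called higher and 2 lower.

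**Figure D5:**
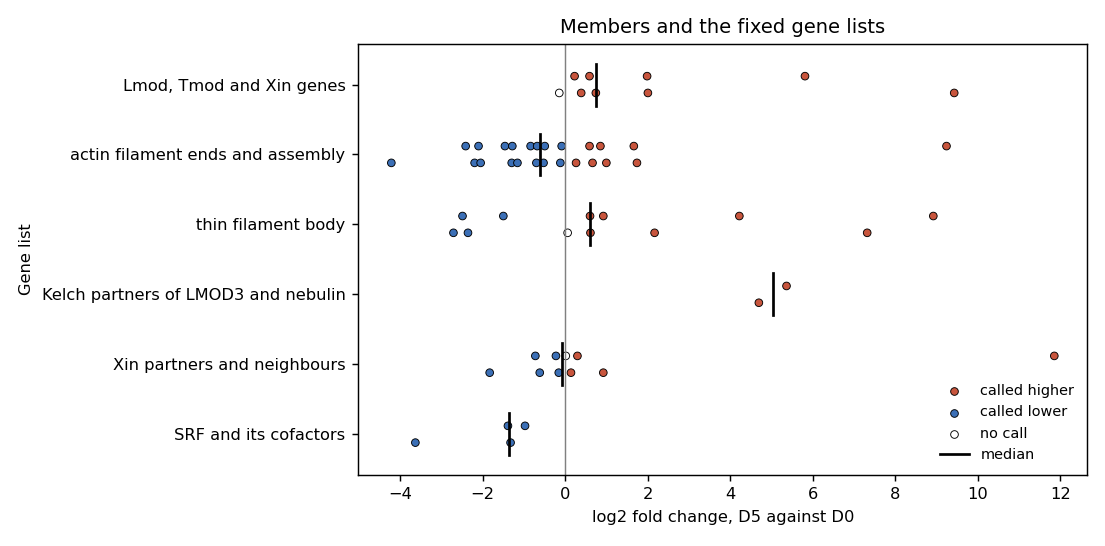
Log2 fold change, D5 against D0, of every tested gene of the 9 members and of the fixed lists, as points colored by call (red higher, blue lower, white none), with the median of each list as a black bar. The medians are 0.74 for the members, -0.60 for filament ends and assembly, 0.61 for the thin filament body, 5.03 for the Kelch genes, -0.069 for Xin partners and -1.35 for *Srf* and its cofactors.

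The cell state was checked with marker lists, beside 42.2% of all genes tested called higher and 40.8% called lower. All 6 myotube markers were called higher, with a summed level from 5818 to 6217 CPM at D0 and from 30009.6 to 31322.5 CPM at D5. Nearly all of the D0 sum was *Ttn*, which encodes titin, with 6024 ± 199.9 CPM (SD, n = 3), and the other markers had D0 means of at most 2.76 CPM. The median log2 fold change of the list was 8.66. All 6 markers of proliferating myoblasts were called lower, from 1692 to 1703 CPM in sum at D0 and from 76.6 to 85.5 CPM at D5. Since the libraries are bulk RNA, fewer cells of a kind and less RNA per cell cannot be told apart. Of 7 smooth muscle markers 2 were called higher and 3 lower, with a sum from 5580 to 5822 CPM at D0 and from 4464 to 4623 CPM at D5, and the defining gene *Myh11* had at most 8 reads in any library. Of 5 neuronal markers 1 was higher and 2 lower, with a sum from 247 to 254 CPM at D0 and from 47.5 to 50.04 CPM at D5, and *Rbfox3* was at 0 and *Snap25* at most at 1 read. Of 6 erythroid markers only *Hba-a1*, which has a near-identical copy, was tested and it was called higher, the sum stayed under 1 CPM in every library, and *Hbb-bs* was at 0. Of 5 fibroblast markers 4 were called higher, and their sum, most of it *Col3a1*, lay from 556 to 580 CPM at D0 and from 4093 to 4276 CPM at D5, while *Thy1* had at most 1 read. The part of these shifts in the values of the 9 genes was not tested.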

How the data were processed

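RNA from 3 D0 and 3 D5 samples of C2C12 cells was sequenced. The authors aligned the reads to GRCm38 and deposited featureCounts counts per gene, without normalization. The labels name Tophat2 and the paper's methods HISAT2 as aligner. The annotation release, strand setting and handling of multi-mapping reads are not given in the sources used here. A total row without a gene name and 92 ERCC rows were kept out of library sizes and tests.

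TMM factors, CPM and quasi-likelihood tests came from edgeR 4.0.16 (R 4.3.3) after its filterByExpr, with Benjamini-Hochberg adjustment over the 16290 genes tested and a threshold of 0.05. Standard errors are the absolute change over the square root of F. TPM used exonic lengths of GENCODE M21, matched to 99.8% of gene rows. The fit was tested on simulated data.

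The members and gene lists were chosen with earlier results of these data known. Named genes are the 9 members, up to 4 genes of each list with the largest called changes and a mean of at least 100 reads on 1 day, the nearest 3 genes of 4 members, and list or overlapping genes that a statement turns on. *Kbtbd13*, *Tstd2* and *Gm13601* were named after their values were seen, as were the single markers. Alternatives were DESeq2 1.42.0, upper-quartile factors, total counts, ERCC scaling, no filter, a minimum of 10 counts per library, leaving out 1 library at a time, and a replicate block. Each library was counted as 1 sample. Replicate pairs differed by more than sampling noise, with chi-square values of 2.28 to 3.71 for each degree of freedom. These values cannot tell separate cultures from technical repeats, because both can exceed sampling noise. Some genes that these rules select are not reported here.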

Additional observations from a re-analysis of the deposited data

How the results depend on the processing

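The calls of *Lmod2*, *Lmod3* and *Tmod1* held their direction and their side of the threshold in every alternative in which they were tested. *Lmod2* and *Tmod2* were not tested with at least 10 counts in every library. Over all alternatives and the 9 genes, 105 log2 fold changes kept direction and side of the threshold. Another 5 kept direction but lost a call, 3 gained one (all *Lmod1*), and 2 turned sign and also lost their calls. The turned values were -0.33 for *Xirp1* and -0.15 for *Xirp2*, both with scaling to the ERCC spike-ins, under which 3 of the 9 genes were called higher. That scaling left 1813 genes called higher and 3747 lower over all genes (67.4% of calls lower, against 49.2%), and it left 1 gene of filament ends and assembly higher and 12 lower, 4 of the thin filament body higher and 4 lower, and 1 Xin partner higher and 2 lower. Spike-in shares differed between D5 libraries, and the cause was not tested. The number of members called lower was 1 with total counts and without a filter on low counts, and 0 to 1 when each library was left out. The same fits gave 7 to 8 members called higher. With the length of the longest transcript, the shares of tropomodulin TPM were 69.0% at D0 and 84.1% at D5 for *Tmod1*, 27.9% and 14.4% for *Tmod3*, 0.139% at D5 for *Tmod2* and 2.98% at D0 for *Tmod4*.

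The replicate numbers are only numbers in the labels. Deviations from the day means correlated from 0.0277 to 0.0645 between samples of the same number, each sample correlating best with its own number, which is a hint from the data and not the design. With the replicate number as a block, 8 members were called higher and 0 lower, and 13558 genes were called in place of 13510. Depth limited *Lmod2* at D0 and *Tmod2* and *Tmod4* on both days, each with under 50 reads in any of those libraries.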

Other observations

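Set against the striated actins, the ratio of tropomodulins was lower in myotubes and that of *Lmod2* and *Lmod3* higher. These ratios were chosen after the values had been seen and were not tested. For each 1000 TPM of *Acta1* and *Actc1* together, the summed TPM of the 4 tropomodulins was 426, 413 and 457 in D0 replicates 1, 2 and 3 and 24.5, 21.0 and 22.3 in the D5 libraries. The same ratio for *Lmod2* and *Lmod3* together was 46.7, 53.1 and 57.6 at D0 and 79.8, 72.3 and 73.7 at D5, higher in 3 of 3 D5 libraries than in every D0 library. For *Lmod1* it was 69.2, 69.9 and 64.1 at D0 and 0.964, 0.891 and 0.857 at D5. With *Lmod1* included, the ratio for the 3 leiomodins was 116, 123 and 122 at D0 and 80.8, 73.2 and 74.6 at D5, so the direction for the family turned on that gene. At D0 cytoplasmic and smooth muscle actins were far more abundant than the striated ones, and the ratio counts only the striated ones. *Actb* had 10026.6 TPM and *Acta2* 4501 TPM at D0, against 48.6 TPM for *Acta1* and 90.3 TPM for *Actc1*. At D5 *Acta1* had 6966 TPM and *Actc1* 1511 TPM.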
